A study of Caenorhabditis elegans with 2 samples.

Results

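The cuticle collagen genes of Caenorhabditis elegans were examined for binding of MADF-8, a DNA-binding protein of the MADF domain family. Members were the protein-coding genes whose name is col-, rol-, sqt- or bli- followed by a number, which gave 169 of the 19973 protein-coding genes on the 6 chromosomes. Of these, 156 were named col, 4 rol, 3 sqt and 6 bli. The other 19804 protein-coding genes form the rest of the annotation (WBcel235, the assembly also called ce11).

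The data are chromatin immunoprecipitation followed by sequencing (ChIP-seq) of whole young adult worms, 64 hours old. The strain, RW12322, carries the allele st12322, a CRISPR insertion at madf-8 on chromosome III that adds TY1, EGFP and 3xFLAG to the protein, so the immunoprecipitation used an antibody to GFP. Populations had been synchronized by bleaching and starvation at the L1 larval stage. There is 1 group of 2 biological replicates, both from this strain, and no untagged or mutant worms to set them against.

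Chromatin came from whole animals, so fewer cells with the protein bound and less binding per cell cannot be told apart, and no site can be placed in a tissue. The read depth of the libraries is unknown, since the files are lists of sites. Binding at the list of germline and oocyte markers and at the list of epidermis markers is given below with the other gene lists.

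The worm cuticle is an extracellular coat of collagens that the epidermis secretes anew at each molt. Its collagens are short, are encoded by a large gene family, and are made in waves during each molting cycle. Chains trimerize through repeats of glycine followed by 2 other residues (Gly-X-Y), are hydroxylated and trimmed on the way out of the cell, and are then cross-linked. Mutations in single collagens can shorten, blister or twist the animal, and the names bli (blister), rol (roller) and sqt (squat) come from such phenotypes.

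The label was checked against translations of the annotated coding sequences. A run of at least 10 Gly-X-Y triplets was present in 164 of the 169 genes, whose proteins had a median length of 304 residues (154 to 948) and a median longest run of 21 triplets (10 to 155). The other 5 genes had shorter runs. In 4 of them the protein is of another kind: bli-3 encodes a dual oxidase that cross-links cuticle proteins, bli-4 a proprotein convertase, bli-5 a Kunitz-type protease inhibitor, and rol-3 a receptor tyrosine kinase. The fifth, col-17, had a longest run of 1 triplet in its annotated coding sequence. The set is therefore called the collagen-named genes below.

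A gene counts as having a site where the summit of a site in the pair's thresholded list lies between 500 bp upstream and 100 bp downstream of one of its protein-coding transcript starts. That list holds 1972 sites, kept by the irreproducible discovery rate (IDR), which measures how well sites keep their rank between sets of calls. The lists of each single replicate carry an IDR too, so it does not always compare the 2 replicates. Which sets were compared for each list was not established. The scaled IDR score, highest at 1000, goes no lower than 830 in the pair's thresholded list. The signal is the authors' own value for each site, with a median of 119.7 over the list, and serves only to rank and describe sites within a list.

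A MADF-8 site lay at the promoters of col-38, col-2, col-71 and col-157, 4 of the 169 collagen-named genes or 2.37% (95% Wilson interval 0.924 to 5.93%). Over all protein-coding genes the share was 6.97%, or 1392 genes. On the autosomes alone the shares were 2.82% of 142 collagen-named genes (1.1 to 7.02%) and 7.95% of all genes. The intervals cover counting error over genes only. No test was made of these differences, because the set of genes was chosen with results of these data known.

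The bases around the 4 summits are printed as the sequence at the sites counted for this gene family. At col-38, col-2 and col-71 the start of another coding gene is closer to the summit, as described below. Each printed window is 101 bases of the ce11 assembly, read 5′ to 3′ on the strand of the collagen gene. At col-2, col-38 and col-71 the capitals mark the 11 bases centred on the summit. For col-157 the capitals mark the stretch that holds 3 overlapping words common at MADF-8 sites, described further below. The windows are chrII:8569481-8569581 (minus strand) for col-38, chrIV:10085843-10085943 (minus strand) for col-2, chrII:3502800-3502900 (minus strand) for col-71 and chrV:11483691-11483791 (plus strand) for col-157. None overlaps an annotated UTR.
col-38: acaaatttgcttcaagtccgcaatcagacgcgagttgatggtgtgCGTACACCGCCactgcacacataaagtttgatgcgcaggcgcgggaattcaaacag
col-2: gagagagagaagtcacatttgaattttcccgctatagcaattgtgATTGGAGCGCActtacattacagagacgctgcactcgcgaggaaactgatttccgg
col-71: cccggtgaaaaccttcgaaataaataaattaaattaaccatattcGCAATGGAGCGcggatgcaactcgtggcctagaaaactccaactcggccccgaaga
col-157: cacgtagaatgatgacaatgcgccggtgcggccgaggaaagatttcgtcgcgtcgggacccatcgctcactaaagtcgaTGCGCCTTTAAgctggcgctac

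GC content was 50.5% in the col-38 window, 46.5% at col-2, 45.5% at col-71 and 57.4% at col-157. Promoters, taken as the 601 bases of the window at the outermost start, had a median GC content of 37.1% over the collagen-named genes and 34.6% over all genes. Among genes with a site the median was 40.1% for the 4 collagen genes and 35.6% for all genes.

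The gene col-38 had the strongest site of the family. Its site, chrII:8569393-8569668, had a signal of 154.8 and a score of 1000, and 36.1% of the list was stronger. The replicates' own lists held it too, with signals of 84.3 in replicate 1 and 71.2 in replicate 2, each at a score of 1000. The summits of the replicates lay 24 and 35 bp from that of the pair. The summit was 443 bp upstream of col-38 (WBGene00000615, chrII:8568035-8569088, minus strand) and 396 bp from the start of rpl-5. This neighbour (chrII:8569927-8571100, plus strand) encodes a protein of the large ribosomal subunit. The summit also lay within exons of the noncoding RNA genes F54C9.16 and F54C9.17, whose starts were 100 and 31 bp away.

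The site at col-2, a collagen gene known for its use in the dauer larva, was weaker. It lay at chrIV:10085755-10086030 with a signal of 99.96 and a score of 1000, and 62.6% of the list was stronger. Its signal was 49.6 in replicate 1, at a score of 891, and 49.8 in replicate 2, at a score of 1000. Both replicates therefore kept the site. Its summit was 442 bp upstream of col-2 (WBGene00000593, chrIV:10084439-10085451, minus strand) and 244 bp from the start of ndc-80 (chrIV:10086137-10088437, plus strand), which encodes a kinetochore protein.

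The site at col-71 passed the threshold in 1 of the 2 replicates. The pair's list gave chrII:3502712-3502987 a signal of 88.97 and a score of 1000, with 72% of the list stronger. Replicate 1 kept it at a score of 834 and a signal of 41.8. Replicate 2 ranked it at a score of 818 and a signal of 46.3, just under its own lowest kept score of 830. The signals of the replicates were thus close, while their scores stood on either side of the threshold. The summit was 280 bp upstream of col-71 (WBGene00000647, chrII:3500077-3502570, minus strand) and 118 bp from the start of Y49F6B.2 (chrII:3502968-3504910, plus strand).

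The site at col-157 was the weakest of the 4 and the least reproducible. It lay at chrV:11483603-11483878 with a signal of 68.6 and a score of 935, and 91.2% of the list was stronger. Neither replicate's thresholded list held it, nor did the authors' conservative list of the pair. In the full ranked lists its signal was 22.8 at a score of 88 in replicate 1 and 46.5 at a score of 819 in replicate 2. The IDR of the site was 0.0056 in the pair, 0.612 in replicate 1 and 0.0107 in replicate 2. In the ranked list behind the conservative list of the same pair its score was 169 and its IDR 0.391. Its summit was 301 bp upstream of col-157 (WBGene00000730, chrV:11484042-11485039, plus strand). No other coding start was closer: the nearest, srh-1, lay 2117 bp away and had no site. A noncoding RNA gene, T11F9.23, started 272 bp from the summit.

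**Figure D1:**
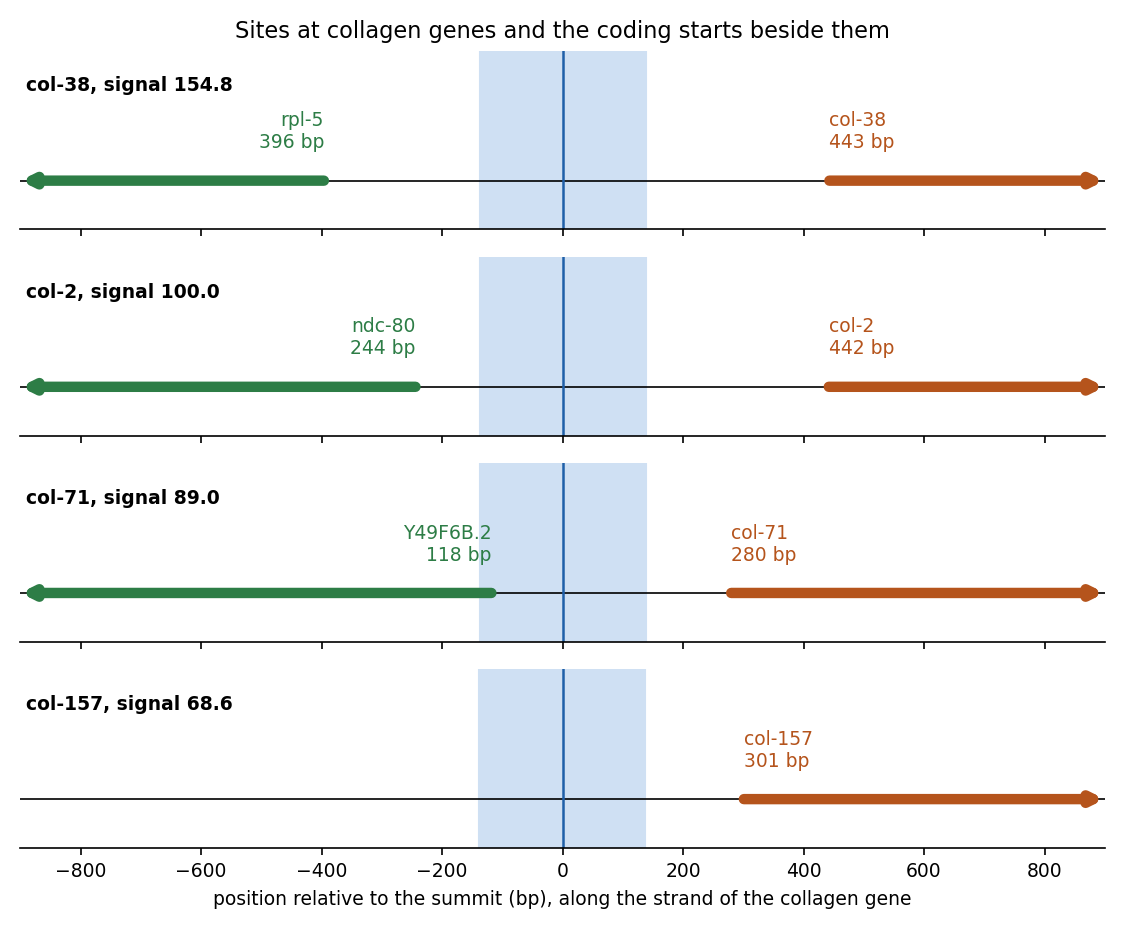
Position of each site at a collagen gene (blue band, summit as a blue line) relative to the coding starts beside it, in bp along the strand of the collagen gene, with the collagen gene in orange and its neighbours in green. At col-38, col-2 and col-71 the start of the green gene, on the other strand, is closer to the summit than that of the collagen gene, and at col-157 no other coding start lies within the span drawn.

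The 3 sites kept by at least 1 replicate thus lay between divergent genes, with the pair's summit in each case closer to the neighbour than to the collagen. At col-38 this order was not stable between the replicates. The summit of replicate 1, shifted 24 bp towards col-38, lay about midway between the starts of col-38 and rpl-5. That of replicate 2 was closer to rpl-5. The counts that follow use the pair's summits. The starts were 839 bp apart at col-38 and rpl-5, 686 bp apart at col-2 and ndc-80, and 398 bp apart at col-71 and Y49F6B.2, and each neighbour also counts as having the site. A closer coding start was found for 3 of the 4 collagen genes with a site (75%) and for 305 of the 1392 genes with a site in all (21.9%), 297 of them by a start on the opposite strand. When each site was given to its nearest coding start only, col-157 was the one collagen-named gene left, 0.592% of the 169 (0.105 to 3.28%), against 5.48% of all genes (1095 genes).

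The summits at collagen genes were also far from their starts. Their distances ran from 280 to 443 bp with a median of 371.5 bp, and the distances over all genes with a site ran from 1 to 500 bp with a median of 201 bp. All 4 lay at least 250 bp upstream, as did 558 of all 1392 genes with a site (40.1%). Their signals, between 68.6 and 154.8 with a median of 94.5, lay within the range over all genes with a site, whose median was 137.7.

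A divergent coding start lay within 1000 bp at 21 of 169 collagen-named genes, 12.4% (95% Wilson interval 8.27 to 18.2%, which holds the share of all genes), and at 17.7% of all genes. Of these 21, the 3 named above had a site, which is 14.3% (4.98 to 34.6%), beside 18.7% of all genes with such a neighbour. Of the 148 collagen-named genes without one, only col-157 had a site, or 0.676% (0.119 to 3.73%), beside 4.44% of all genes without one. The other 18 of the 21 had no site, at start-to-start distances from 109 bp at col-7 to 890 bp at col-114, and they include bli-5 and bli-6.

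Each replicate's own thresholded list gave a similar picture. Replicate 1 had a site at col-2, col-38 and col-71, 1.78% of the family (0.606 to 5.09%), against 5.24% of all genes. Replicate 2 had a site at col-2 and col-38, 1.18% (0.325 to 4.21%), against 6.04% of all genes. No collagen-named gene had a site in a replicate's list without having one in the pair's list.

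**Figure D2:**
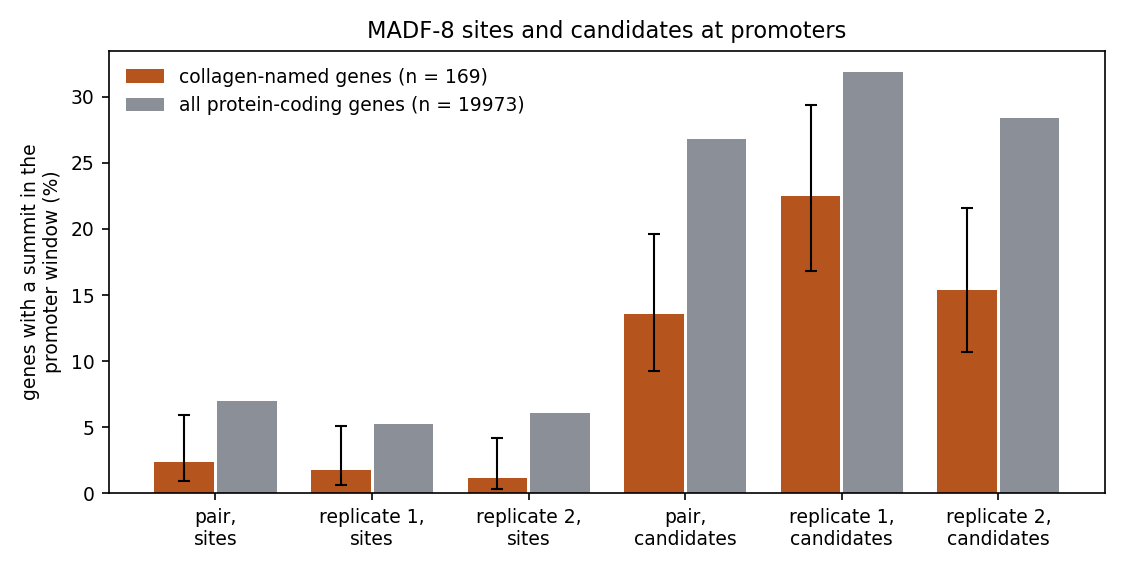
Percentage of genes with a summit in the promoter window, for the collagen-named genes (orange, n = 169, with 95% Wilson intervals) and all protein-coding genes (grey, n = 19973), from the thresholded lists (sites) and the full ranked lists (candidates) of the pair and of each replicate. The orange bar is lower in all 6 pairs, at 2.37% against 6.97% for the pair's sites and 13.6% against 26.8% for its candidates.

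The ranked lists behind the thresholded ones also hold weaker entries, and their entries are called candidates here. They give no score for the 146 collagen-named genes with no candidate of the pair. The pair's ranked list has 32380 candidates and includes all 1972 sites. A candidate fell in the window of 23 collagen-named genes, 13.6% (9.24 to 19.6%), and of 26.8% of all genes. In replicate 1 the shares were 22.5% (16.8 to 29.4%, 38 genes) and 31.9%, and in replicate 2 they were 15.4% (10.7 to 21.6%, 26 genes) and 28.4%. Candidates in both replicates were found at 13 collagen-named genes (7.69%) and 17.9% of all genes. Replicate 1 alone had one at 25 (14.8%) and 14% of all genes, and replicate 2 alone at 13 (7.69%) and 10.5% of all genes. Neither replicate had one at 118 (69.8%) and 57.7% of all genes.

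Beside the 4 genes with a site, 19 collagen-named genes had a candidate of the pair. Their scores ran from 23 to 322 with a median of 23, which is the lowest score in the ranked list, and their signals from 3.11 to 54.5 with a median of 33.5. Over the 3951 genes in all with a candidate and no site, the median score was 54 and the median signal 35.7. A score of 100 or more was reached by 3 of the 19 (15.8%) and by 1161 of the 3951 (29.4%). Of the 19 summits, 11 lay upstream of the start, and at 1 gene, col-155, another coding start was closer.

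The family's sites and its other candidates were apart in score. Few genes of any kind lay just under the threshold: 7.82% of all genes had a candidate scoring at least 540, beside 6.97% with a site. The gap is therefore not read as a trait of the family. In the family, the lowest score with a site was 935, at col-157, and the highest without one was 322, at col-42. This gene on chromosome V had a candidate 66 bp downstream of its start, with a signal of 51.2 and an IDR of 0.167. Replicate 1 had no candidate in its window, and replicate 2 had one with a signal of 24.5 at a score of 72. Next came col-165 on chromosome X, 49 bp downstream, with a signal of 54.5 at a score of 249. Both replicates held a candidate there, at scores of 40 and 91 and signals of 32.4 and 18.7. The candidate of col-111 on chromosome IV lay 363 bp upstream with a signal of 22.6 at a score of 179, and of the replicates only replicate 2 had one in the window.

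None of the other 16 reached a score of 100. The candidates of col-43, col-130 and col-158 had scores of 87, 70 and 66 and signals of 36.9, 38.7 and 38.01. That of col-43 lay 78 bp downstream of the start, that of col-130 lay 20 bp downstream and that of col-158 lay 55 bp upstream. The scores of col-95 and col-129 were both 56, with signals of 33.2 and 3.11, and col-172 had a score of 23 and a signal of 40.1. For col-43, col-129 and col-130 each replicate had a candidate in a promoter window of the gene, while for col-158, col-95 and col-172 replicate 1 alone did. At col-130 the candidates of both replicates overlapped that of the pair. At col-43 only that of replicate 1 did, and that of replicate 2 lay 500 bp upstream of the start. At col-129 neither did, and both lay at another transcript start of the gene.

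**Figure D3:**
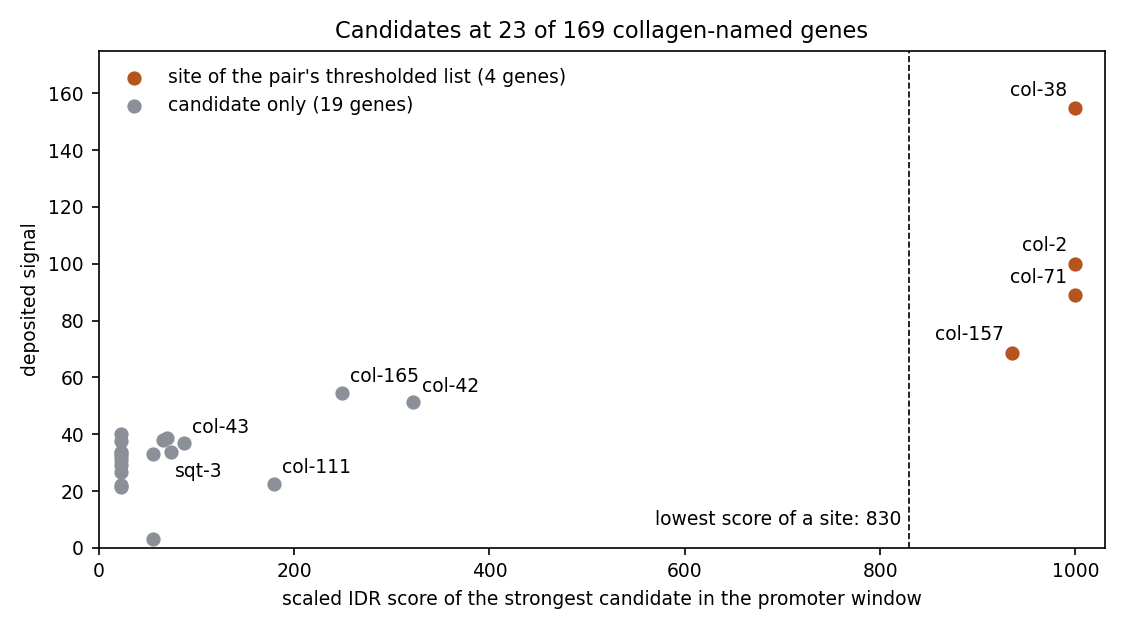
Scaled IDR score (x axis) and deposited signal (y axis) of the highest-scoring candidate in the promoter window of each of the 23 collagen-named genes that had one, with the 4 that are sites in orange and the 19 others in grey; the dashed line is the lowest score of a site, 830. The grey points end at col-42 with a score of 322, and the orange points begin at col-157 with a score of 935.

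**Figure D4:**
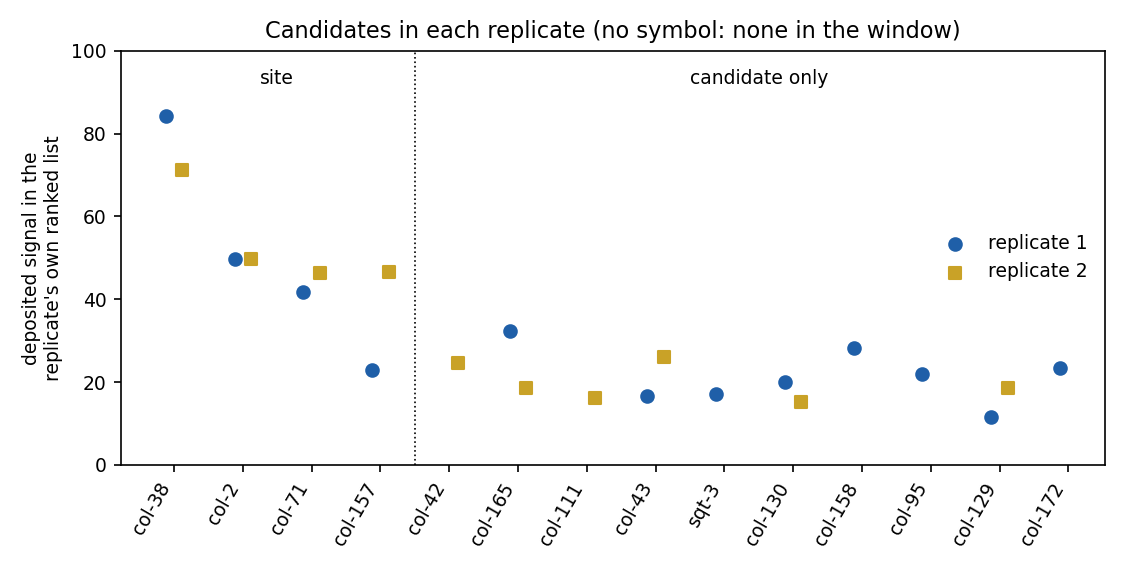
Deposited signal of the highest-scoring candidate in the promoter window in the ranked list of replicate 1 (circles) and replicate 2 (squares), for the 4 collagen-named genes with a site and the 10 others with the highest-scoring candidates of the pair. The symbols of both replicates are highest at col-38 (84.3 and 71.2), and at col-157 the replicates stand at 22.8 and 46.5. The symbols of both replicates at col-129, and that of replicate 2 at col-43, are of candidates that do not overlap that of the pair.

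None of the 13 genes named rol, sqt or bli had a site, a count whose 95% Wilson interval, up to 22.8%, holds the 6.97% of all genes. Of these, sqt-3, a cuticle collagen whose mutants can be squat, was the only one with a candidate of the pair. It had a signal of 33.6 at a score of 74, with the summit 285 bp upstream of an inner transcript start, and replicate 1 alone had a candidate in the window. Candidates in the replicates were few. Those of bli-6 were present in both, with signals of 8.96 at a score of 47 in replicate 1 and 23.8 at a score of 61 in replicate 2, but the pair's list had none there. Replicate 1 alone had one at bli-4 (signal 24.11, score 28) and at rol-1 (signal 14.97, score 14). Replicate 2 alone had one at rol-8 (signal 17.2, score 16) and at bli-1 (signal 17.97, score 16).

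Over all genes the median distance from a start to the nearest site was 21301 bp. Among the rol, sqt and bli genes this distance varied widely around that value. It was 2768 bp for bli-2 and 5465 bp for bli-1, which encode collagens of the struts that join the cuticle layers. It was 7975 bp for sqt-1, 8984 bp for sqt-3, 31778 bp for rol-6 and 193483 bp for sqt-2, and between 9399 and 55065 bp for the others. For rol-6, the roller collagen whose dominant allele is widely used as a transformation marker, neither the pair nor a replicate had a candidate. The epidermis markers col-10 and col-19, the second an adult collagen, lay 78527 and 239220 bp from the nearest site.

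Over the whole family the nearest site was a median of 30006 bp from a start (280 to 815736 bp), and over all genes a median of 21301 bp (1 to 839328 bp). A site lay within 1000 bp of a start at 6 collagen-named genes (3.55%) and 9.66% of all genes. Within 10000 bp the shares were 22.5% and 32.4%.

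Sites just outside the window were also few. Of the genes without a site, col-63 came nearest, with a summit 678 bp upstream of its start, a signal of 128.9 and a score of 1000. The site, chrI:8245503-8245778, was closer to col-63 than to ceh-8, the next coding start at 1326 bp, and neither gene had a site in its window. At col-94 the nearest summit was 1821 bp upstream (chrIII:10989556-10989831, signal 138.9). At col-83 it was 2199 bp downstream of the start, past the end of the gene (chrII:11043635-11043910, signal 149.3). At col-111 it was 2521 bp upstream (chrIV:4660357-4660632, signal 126.9), a site that lay 294 bp from the start of F29B9.11.

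Summits inside gene bodies were found at 2 collagen-named genes, 1.18% (0.325 to 4.21%), and at 2.59% of all genes. In rol-3, which is not a collagen, the summit lay in an intron 9399 bp from the gene's start (chrV:8228872-8229147). It had a signal of 154.7 and a score of 1000, and both replicates kept it, with signals of 91.7 and 62.7. In col-123 the summit lay in a coding exon 906 bp downstream of the start (chrIV:9822689-9822964) with a signal of 76.2 and a score of 1000. Neither replicate's thresholded list held that site, though the ranked lists gave it signals of 40.2 in replicate 1 and 36.5 in replicate 2.

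Collagen genes often lie side by side in this genome, and 46 of the 169 had another member of the family as a neighbour in gene order. None of the 46 had a site, which leaves a 95% Wilson interval of up to 7.71% that holds the 6.97% of all genes. Of the 281 coding genes next to a member that are not members themselves, 14 had a site, 4.98% (2.99 to 8.19%), an interval that also holds the share of all genes. The strongest was a site shared by npp-3, a nucleoporin gene, and top-2, a topoisomerase gene, with a signal of 598.4. It was followed by sites at mtr-4 (signal 382.4), psr-1 (356.7), prcc-1 (284.4) and flh-1 (225.2). The 14 genes include rpl-5, ndc-80 and Y49F6B.2, whose sites are those already counted at col-38, col-2 and col-71. They also include dph-2 and C09G5.7, which share a site. The sites beside members and those at members are therefore not separate groups. The sites from npp-3 to flh-1 named above were stronger than any site at the promoter of a member, where the highest signal was 154.8.

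By chromosome, the family's sites were 2 of 31 genes on chromosome II, 1 of 42 on IV and 1 of 33 on V. There were none among 23 genes on I, 13 on III and 27 on X, where a count of 0 allows shares of up to 13%, 23.1% and 11.1%. These 3 limits are 3 counts divided by the number of genes and not Wilson limits. Over all genes the shares were 10.7% on I, 8.7% on II, 11.5% on III, 6.64% on IV, 4.85% on V and 0.769% on X. For candidates the gap to all genes was widest on chromosome I, with 0 of 23 against 32.1%, then on III, with 1 of 13 (7.69%) against 34.5%, and on II, with 2 of 31 (6.45%) against 27.9%. On IV the shares were 7 of 42 (16.7%) and 27.8%. On V the shares were 7 of 33 (21.2%) and 22%, and on X they were 6 of 27 (22.2%) and 19.6%. The members were spread over the chromosomes in other proportions than all genes, with 24.9% of members against 16.4% of genes on IV and 7.69% against 13.2% on III.

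**Figure D5:**
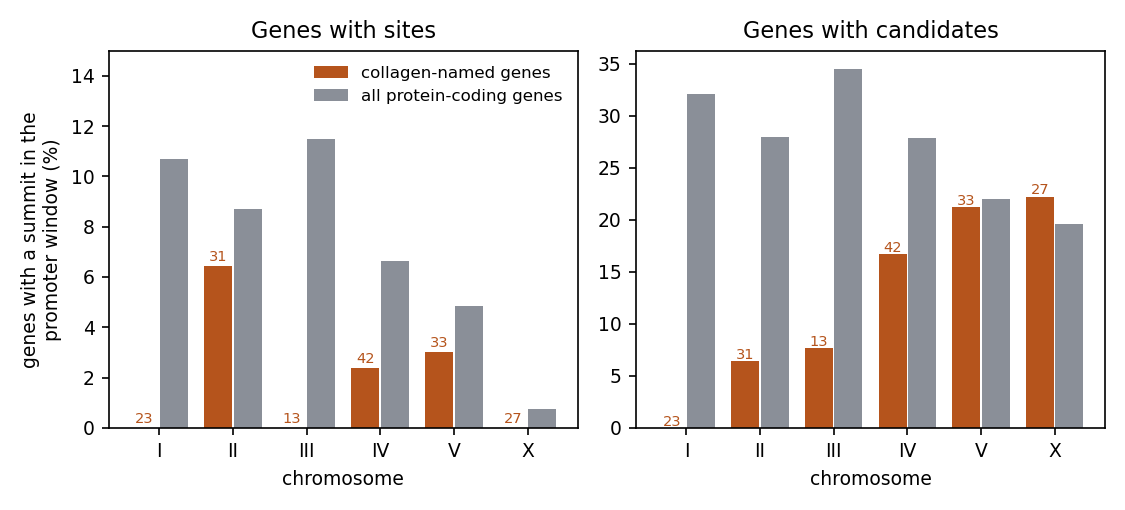
Percentage of genes with a site (left) and with a candidate of the pair's ranked list (right) in the promoter window, by chromosome, for the collagen-named genes (orange, with the number of members above each bar) and all protein-coding genes (grey). Sites at members were found on chromosomes II, IV and V, and the share of members with a candidate was 0 on I, 21.2% on V and 22.2% on X.

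Genes that act with the cuticle collagens were counted in lists of known members, beside shares over all genes of 6.97% with a site and 26.8% with a candidate. The lists are short, and each count of 0 sites in them has a 95% Wilson interval that holds 6.97%. None of 12 other cuticle collagens with dpy or lon names had a site, and 2 had a candidate (16.7%, 4.7 to 44.8%): dpy-7, a collagen of the annular furrows (score 149, signal 41.5), and dpy-8 (score 23, signal 29.0). None of 4 basement membrane and other collagens had a site (up to 49%), and cle-1 had a candidate. Of 16 genes for collagen folding, processing and cross-linking, 3 of them bli genes of the family, 1 had a site, 6.25% (1.11 to 28.3%). This was dpy-11, which encodes a thioredoxin-like protein, with a summit 51 bp downstream of the start (chrV:6515051-6515326, signal 66.0, score 1000) that neither replicate's thresholded list held.

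In the list for collagen secretion 3 of 6 genes had a site, 50% (18.8 to 81.2%), against 6.97% of all genes; no test was made of a list. The gene sar-1, for the small GTPase of the COPII coat, had a site 407 bp upstream (chrIV:4513588-4513863, signal 147.9) that both replicates kept. The gene sec-24.2, for a COPII cargo adaptor, had a site with a signal of 127.5 that replicate 2 alone kept. The gene tmem-39 had a site with a signal of 69.2 and a score of 916 that neither replicate kept. COPII proteins serve secretion in every cell type. None of 13 cuticulins and other apical matrix proteins had a site (up to 22.8%), and 3 had a candidate, 23.1% (8.18 to 50.3%). None of 12 regulators of molting and cuticle genes had a site, and 5 had a candidate, 41.7% (19.3 to 68%), against 26.8% of all genes.

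Markers of epidermis and germline were counted in the same way. None of 10 epidermis markers, 2 of them collagens of the family, had a site (up to 27.8%, an interval that holds the 6.97% of all genes). A candidate lay at 4 of them, 40% (16.8 to 68.7%), against 26.8% of all genes, the highest at wrt-10 with a score of 277. The epidermis markers ajm-1, col-19, dpy-7, elt-3 and wrt-2 lie on chromosome X, where 0.769% of all genes had a site. No gene of the germline and oocyte list lies on X, so the 2 lists also differ in chromosome. Of 13 germline and oocyte markers 9 had a site, 69.2% (42.4 to 87.3%), against 6.97% of all genes. These sites were all kept by both replicates except that of glh-1, which replicate 2 alone kept. Their signals ran from 81.4 at glh-1 to 824.0 at oma-1, which encodes an RNA-binding protein of oocyte maturation. The others were oma-2, egg-1, mex-5, mex-6, cbd-1, puf-5 and gld-1. The markers pgl-1, htp-3, him-3 and syp-1 had no site. Both marker lists were chosen with earlier results of these data known, so their shares are descriptions only. At mex-5 the start of another coding gene, rec-8, was closer to the summit, and at the other 8 no other coding start was. Of these 9, all but glh-1 and gld-1 had a signal above that of every site at a collagen-named gene. What part the tissue makeup of the animals has in the family's share was not tested.

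Sequence words were counted around the summits of all sites and in the family's promoters. Among all words of 8 bases, on both strands, those with the largest excess in share within 50 bp of a summit over windows centred 150 bp upstream of genes without a site were AAGGCGCA, AAAGGCGC and GCCTTTAA. They overlap one another as parts of 1 longer sequence. Each of AAGGCGCA and AAAGGCGC was found at 239 sites (12.1%) and GCCTTTAA at 214 (10.9%), beside 0.424%, 0.483% and 0.565% of the comparison windows. Since the words were chosen from these sites, their excess there is a description.

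In the 601-base promoters, at least 1 of the 3 words was found at 5 collagen-named genes (2.96%), 5.44% of all genes and 22.3% of all genes with a site. The 5 were bli-3, col-89, col-94, col-107 and col-157. By word, AAGGCGCA was in 1.78% of the family's promoters and 3.15% of all, AAAGGCGC in 2.37% and 3.43%, and GCCTTTAA in 1.18% and 3.54%. Of the 5 genes only col-157 had a site, in whose printed window all 3 words fall within the capitals, and col-107 had a candidate. The windows printed for the other 3 bound genes hold none of the 3 words. The site nearest to col-83, past the end of the gene, holds all 3, and is shown for comparison with that of col-157 (ce11, chrII:11043723-11043823, minus strand, the words in capitals).
col-83 nearest site: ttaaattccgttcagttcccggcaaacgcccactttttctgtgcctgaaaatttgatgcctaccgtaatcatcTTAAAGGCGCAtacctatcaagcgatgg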

How the data were processed

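MADF-8 ChIP-seq was measured in 2 biological replicates of 1 strain. The authors deposited site lists on ce11, made from the alignments and a control and ranked by IDR, per the deposited file descriptions: a thresholded list (1347 sites in replicate 1, 1608 in replicate 2, 1972 and, in a conservative form, 1977 in the pair) and a full ranked list for each. Column by column, the deposited lists give a scaled IDR score, a signal whose unit the authors do not name, and a summit position. The deposited −log10 IDR was turned back into an IDR. The aligner, the program that called the sites and the way the signal was scaled are not stated in the labels or file descriptions. Signals were therefore compared only within a list, and those of the 2 replicates are set side by side without a test. In the pair's ranked lists, 16 columns of values per replicate were matched to no sample and not used.

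Starts came from Ensembl release 115 (WBcel235), and every protein-coding transcript start was used. Chromosome lengths were checked against the last site on each. Members and gene lists were chosen with earlier results of these data known. Named genes are every member with a site, with its nearest neighbour start; the 10 members without a site with the highest-scoring candidates; all rol, sqt and bli genes; col-10 and col-19; list members with a site; and the 5 members without a site nearest to one. Other genes named were chosen after their values were seen. With 1 group, no test was made, and shares carry Wilson intervals. Linking was tested on simulated data. Biopython 1.88, matplotlib 3.10.9, pandas 2.3.3, scipy 1.17.1 and numpy 2.4.6 ran under Python 3.11.15. Other site lists, thresholds, windows, links and gene starts were tried as alternatives.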

Additional observations from a re-analysis of the deposited data

How the results depend on the processing

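The share of collagen-named genes with a site stayed below that of all genes in all 13 settings that were run, the number with a candidate likewise in all 7. The number with a site, 4 of 169 or 2.37%, was 2 to 3 when either replicate was left out. It was 1 (0.592%, col-38) among the stronger sites, those of the upper part of the list by signal, against 4.13% of all genes. It was 1 (0.592%, col-157) when each site went to its nearest start only, and 0 (0%) in a window 200 bp upstream to 100 bp downstream, against 3.56% of all genes. The conservative list and a score of 1000 each kept col-2, col-38 and col-71, and a window 1000 bp upstream to 200 bp downstream added col-63. The number with a candidate, 23, was 26 to 38 without one replicate, 4 at a score of at least 540, 41 in the wider window and 12 in the narrower one. It was 35 in the ranked list behind the conservative list, a setting chosen after seeing the data. The cause of these shifts was not tested, apart from the window and the threshold, which admit more or fewer summits by construction. Restricting the family to the 164 genes with Gly-X-Y runs, also added after seeing the data in place of a planned use of a protein table, kept all 4. No paired analysis was possible because there is 1 group. Read depth is unknown, so a gene without a site is one where none was detectable at this depth.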
